A study of Mus musculus with 4 samples.

Results

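The loci described here are the stretches of the mouse genome that gave RNA in gastrocnemius, the large calf muscle, but that carry no gene name in the deposited table of expression values. A row was taken when its gene column held a single hyphen and the authors had not marked it as holding too many fragments. This chose 1892 of the 25833 rows (7.32%). The mark rests on the number of fragments, but 0 of the hyphen rows carry it, so it left none of them out. The muscle came from 8-week-old C57BL/6J mice in 2 groups of 2 libraries each, labelled biological replicates. The first group lacks Fundc1 in muscle (Fundc1-mKO, mKO below), and the second is wild type (WT), kept as the control of that knockout. What drives the deletion was not stated in the labels. FUNDC1 sits in the outer membrane of mitochondria, where it marks them for mitophagy, their breakdown by autophagy. The table gives 1 FPKM per group (fragments divided by transcript length and by sequencing yield), so the spread between animals is not known, and a value that comes from 1 animal or from both cannot be told apart. The errors below are the authors' intervals around each FPKM, and the words rise and fall are kept for a q under 0.05, taken from the authors' deposited table.

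Assembly of RNA-seq reads joins overlapping fragments into loci whether or not a gene is annotated there, so loci without a name can be long non-coding RNAs, pieces of long genes, pseudogenes or gene segments that the naming step did not match. A processed pseudogene is a copy of a messenger RNA that was pasted back into the genome, and its sequence can stay almost identical to that of the parent gene. Immunoglobulin genes are a special case: a B cell joins 1 variable (V) segment to a joining segment and a constant (C) gene, the C gene sets the antibody class (IgM first, then IgG or IgA after class switching), and plasma cells make the most of this RNA.

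Sequences are shown for a few short loci that the results turn on, read from GENCODE M21 transcripts, which use the same assembly as mm10, and each stretch is the part of the locus inside an annotated exon. The first 4 are V segments, all on the minus strand, that were listed at 0 in WT. Capitals mark the tryptophan pattern of the second framework region: the codon of the conserved tryptophan, any codon, a codon that begins with C and a codon that begins with CA.
Igkv10-96, chr6:68631964-68632260: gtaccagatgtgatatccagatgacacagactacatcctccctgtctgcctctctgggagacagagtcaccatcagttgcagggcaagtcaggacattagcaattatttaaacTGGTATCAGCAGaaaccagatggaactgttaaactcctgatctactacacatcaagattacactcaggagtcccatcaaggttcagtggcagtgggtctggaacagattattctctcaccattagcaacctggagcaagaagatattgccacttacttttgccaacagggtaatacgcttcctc
Igkv4-58, chr6:69500299-69500562: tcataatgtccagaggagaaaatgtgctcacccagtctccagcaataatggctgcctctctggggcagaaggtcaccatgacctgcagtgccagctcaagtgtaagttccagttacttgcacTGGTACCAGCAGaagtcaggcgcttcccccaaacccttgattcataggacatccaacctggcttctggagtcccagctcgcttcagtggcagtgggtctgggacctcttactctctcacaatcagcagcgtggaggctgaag
Igkv6-15, chr6:70406478-70406766: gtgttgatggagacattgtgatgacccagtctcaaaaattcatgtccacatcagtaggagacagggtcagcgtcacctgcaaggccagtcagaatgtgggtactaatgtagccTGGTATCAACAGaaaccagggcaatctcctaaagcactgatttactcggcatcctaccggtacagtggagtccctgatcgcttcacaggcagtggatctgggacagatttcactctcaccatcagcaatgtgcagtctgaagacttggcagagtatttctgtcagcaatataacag
Ighv7-3, chr12:114153190-114153481: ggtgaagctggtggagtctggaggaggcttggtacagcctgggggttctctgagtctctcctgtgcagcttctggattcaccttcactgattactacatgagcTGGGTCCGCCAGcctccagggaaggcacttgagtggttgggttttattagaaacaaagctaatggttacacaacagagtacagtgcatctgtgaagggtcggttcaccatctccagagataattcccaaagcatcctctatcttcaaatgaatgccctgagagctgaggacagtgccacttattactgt
The last 2 are processed pseudogenes on the plus strand that were among the most abundant unnamed loci, and capitals mark bases that differ from the closest other gene, which is Rps4x for Gm9616 and Mrpl21 for D9Wsu149.
Gm9616, chr13:3298887-3299037: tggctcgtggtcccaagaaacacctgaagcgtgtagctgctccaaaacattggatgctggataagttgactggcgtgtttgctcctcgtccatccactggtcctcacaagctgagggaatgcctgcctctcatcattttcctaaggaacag
D9Wsu149, chr9:57483396-57483567: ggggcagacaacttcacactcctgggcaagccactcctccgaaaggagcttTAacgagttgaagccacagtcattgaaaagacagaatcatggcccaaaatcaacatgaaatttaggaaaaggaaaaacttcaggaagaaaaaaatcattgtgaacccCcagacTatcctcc
The tryptophan pattern starts at base 114 of the Igkv10-96 and Igkv6-15 stretches, at base 123 of Igkv4-58 and at base 104 of Ighv7-3. It was present in 159 of 218 annotated V genes on their own strand (72.9%) and, searched on both strands, in 17.1% of 32817 RefSeq promoter windows of the assembly. Compared over their whole stretches, pattern included, the 4 V segments were distinct, with 59.2% to 69.7% of aligned bases identical between pairs. Gapped positions, 18 to 105 per pair, are left out of these shares. The Gm9616 stretch has no capital because its 151 bases are all found in Rps4x, the gene of a protein of the small ribosomal subunit. The D9Wsu149 stretch differs at 4 of 172 bases from an Mrpl21 transcript, the gene of a protein of the large mitochondrial ribosomal subunit.

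Whole-table checks set the frame. Fundc1 itself had 4.23 FPKM in mKO (authors' interval 3.15 to 5.31) and 20.1 in WT (16.3 to 23.8), and it fell with a q of 0.00338 in the authors' deposited table. The locus closest to it without a name, XLOC_025684 on the pseudogene Gm14539, lies 3.01 Mb away and had 96.7 FPKM in mKO and 103 in WT. Of 14 skeletal muscle markers 13 were in the table, and 6 of these, among them Ckm and Acta1, carry the mark for too many fragments. Of the other 7, 2 were higher and 5 lower in mKO. Among the 6 of these that were tested only Myh2, a fast myosin heavy chain, passed: it fell, with 384 FPKM in mKO and 487 in WT and a q of 0.00338 in the authors' deposited table. Mb, the muscle oxygen store myoglobin, had 1499 FPKM in mKO and 1770 in WT, and Cacna1s, the calcium channel of muscle excitation, had 210 and 187.

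Most of these loci were short and weakly expressed. Their median length was 1423 bp (quartiles 912 and 2389 bp), and all 1892 have 1 start site in the table. The authors tested 1229 of them, and the 663 left untested (35.04%) had a mean over both groups of at most 0.293 FPKM. Tested loci had a median mean of 0.545 FPKM (quartiles 0.328 and 1.24), against 4.89 FPKM for all 14134 tested rows. A mean of at least 1 FPKM was reached by 370, at least 100 by 23 and at least 1000 by 7. Loci were spread over the autosomes, with 136 on chromosome 2, 53 on chromosome X, 4 on chromosome Y and 0 on the mitochondrial chromosome.

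The gap to the nearest row naming a gene had a median of 9501 bp, and 714 loci (37.7%) lay within 5 kb of one. Placed on GENCODE M21, 811 loci (42.9%) touched an exon, 231 (12.2%) lay in introns and 850 (44.9%) lay between genes. Of those 850, 286 overlapped a RefSeq gene and 564 overlapped a gene of neither annotation. The overlapped genes were protein-coding for 537 loci, lincRNA for 278, antisense for 85, processed transcript for 70 and processed pseudogene for 57, where a locus can count under several types. The rows carry no strand here, so RNA of a gene and of its antisense partner cannot be told apart.

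Level followed length steeply at the short end. Among tested loci, the 15 under 200 bp had a median mean of 922 FPKM, the 46 of 200 to 300 bp had 19.4, the 125 of 300 to 500 bp had 2.69, and the 350 of 1 to 2 kb had 0.355. In all 749 loci were 1 to 2 kb long, the rest of them untested. Over the 1229 tested loci Spearman's rho between length and mean FPKM was -0.37, a description of loci that share the same libraries and a unit that divides by length. None of the 15 loci under 200 bp passed the authors' q of 0.05.

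**Figure D1:**
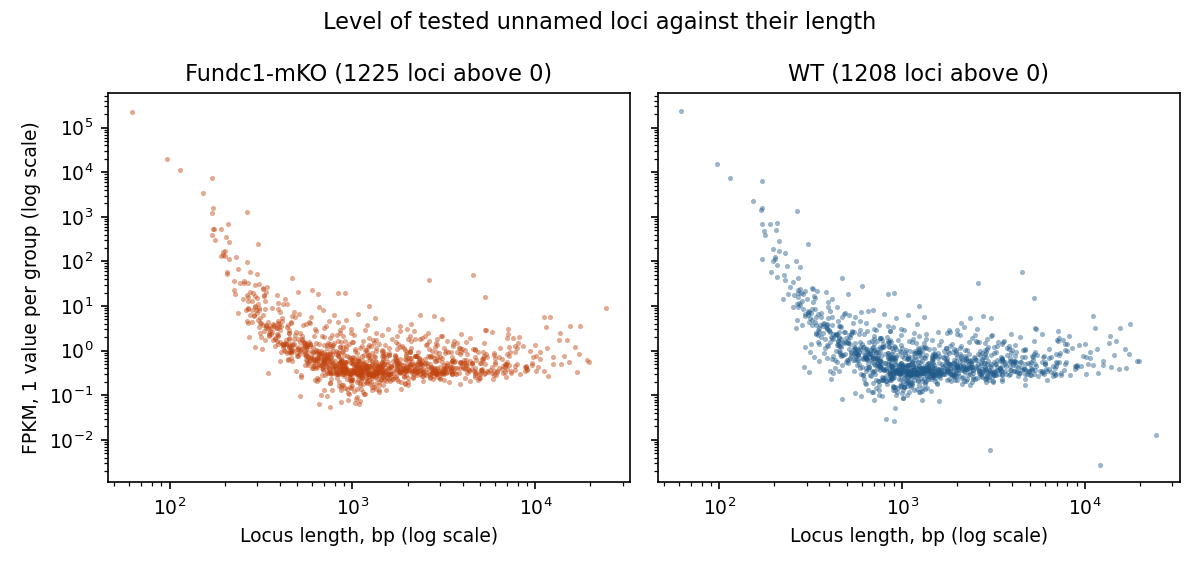
FPKM against locus length in bp, both on log scales, for tested unnamed loci in mKO (left) and WT (right); each point is 1 locus, and loci that share their span with a named row are left out. In both groups the level climbs below about 300 bp, up to 218787 FPKM in mKO and 233810 in WT for the shortest locus of 62 bp.

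The most abundant unnamed loci included pieces of pseudogenes and single exons of very long genes, and none of the 12 with the highest mean passed the authors' q. XLOC_002632 (chr10:74863449-74863510), the shortest locus, overlaps the RefSeq pseudogene Gm6419 and had 218787 FPKM in mKO (interval 65022 to 372552) and 233810 in WT (73223 to 394398). That 1 locus held 26.4% of all FPKM of the table in mKO and 27.6% in WT, and all unnamed loci together held 32.9% in mKO and 32.7% in WT. These are shares of a unit divided by length, not of the RNA. The sums also leave out abundant rows marked for too many fragments: Ckm and Acta1 are listed at 0 in both groups. Tnni2 and Ryr1 are listed at 0 in mKO only, with 11649 and 465 FPKM in WT. Next after XLOC_002632, XLOC_002631 on Gm5778 (chr10:73202747-73202843) had 19911 FPKM in mKO and 15511 in WT, and XLOC_015282 on Gm20568 had 11306 and 7396. The intervals of the groups overlapped widely in each of these, and that of XLOC_015282 ran from 2383 to 20230 in mKO and from 814 to 13979 in WT. The Gm9616 locus XLOC_006419 printed above had 7444 FPKM in mKO (5002 to 9886) and 6265 in WT (3957 to 8574). Its twin in sequence, the named gene Rps4x, had 514 and 507 FPKM. The D9Wsu149 locus XLOC_024585 had 1604 FPKM in mKO and 1542 in WT, and the named Mrpl21 had 30.3 and 30.6. Where copies are this alike, reads of the parent gene could be counted at the pseudogene, and how the authors' counting split them is not stated in the labels.

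The rest of the 12 had levels from 391 to 3466 FPKM in mKO. XLOC_024547, on the processed pseudogene Gm10709 (265 bp), had 1301 FPKM in mKO (1068 to 1533) and 1361 in WT (1117 to 1606), intervals that lie almost on each other. XLOC_015207, between genes on chromosome 3, had 1232 in mKO (479 to 1985) and 675 in WT (87.8 to 1263). Exons of Ank2 gave 697 and 526 FPKM in mKO and 726 and 701 in WT, at XLOC_015284 and XLOC_015286. XLOC_023184, on the pseudogene Impdh2-ps, had 535 in mKO and 472 in WT. Longer loci with high levels were few. XLOC_011517, 2605 bp on the transcribed processed pseudogene Gm31166 of chromosome 19, had 38.6 FPKM in mKO (32.2 to 45.01) and 33.6 in WT (28.0 to 39.3). Gpx4-ps2, a pseudogene copy of the glutathione peroxidase gene Gpx4, had 20.7 in mKO and 18.8 in WT, and Gm8325 had 24.8 and 25.3. Genes that GENCODE types as non-coding and sharing a promoter region with a coding gene included Ndufb1-ps, where XLOC_005460 had 6.44 FPKM in mKO and 5.48 in WT. In RefSeq this locus overlaps the gene Ndufb1. The antisense gene Foxo6os had 2.83 and 3.33. Outside the chromosome 6 run described further on, the longest loci with a span of their own were XLOC_009129 of 19668 bp, with 0.543 FPKM in mKO and 0.585 in WT, and XLOC_023207 of 19158 bp, with 0.625 and 0.594. The intervals of the groups overlapped in all of these, and none passed the authors' q.

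Near-identical sequence elsewhere in the transcripts was looked for among all short loci. Of 70 loci of at most 310 bp, 37 lie by at least 80% in a GENCODE exon and so have a sequence, and 11 of these match another gene at 95% identity or more over 90% of the stretch. In 2 of the 11 that gene overlaps the locus itself, so the match is no copy: Zkscan7 at A530083I20Rik and Gatad2b at 4930537H20Rik. The 9 with a match elsewhere were 5 antibody loci and all 4 processed pseudogene loci that have a sequence. The pseudogenes not described above, picked after their values were seen, were Gm12312, 99.0% identical to Fgfr1op2, with 174 FPKM in mKO and 124 in WT, and Gm10080, 98.8% identical to the myosin light chain gene Myl6, with 10.9 and 7.80. Processed pseudogenes as a type had 41 tested loci, 29 of them higher in mKO by the sign of the ratio alone, with a median log2 ratio of 0.07 and 0 past the authors' q. The polyadenylation signals AATAAA and ATTAAA, searched on both strands, were in 3 and 2 of the 37 stretches (8.11% and 5.41%), against 19.6% and 13.9% of the promoter windows. The box motifs of small nucleolar RNAs, TGATGA and CTGA, were in 6 and 33 (16.2% and 89.2%, against 12.4% and 94.1%). The B box of RNA polymerase III genes and the Sm site AATTTNTGG were in 0, against 0.0457% and 0.826%. The stretches and the windows differ in length, so these shares are given side by side only.

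Between mKO and WT, 55 of the 1229 tested unnamed loci (4.48%) passed the authors' q of 0.05 in the authors' deposited table, where 3.17% of all tested rows did. By direction, 40 unnamed loci rose (3.25%) and 15 fell (1.22%), whereas 0.92% of all tested rows rose and 2.25% fell. Most of the rises come from 2 places described next, an immunoglobulin set and a block on chromosome 6, both of which were singled out after their values were seen. Without them, 31 of 1196 loci (2.59%) were called, 16 higher and 15 lower, and none of those 31 had a mean above 3.31 FPKM. Taken over all tested unnamed loci, the median log2 ratio of FPKM + 1 was 0.00 (quartiles -0.12 and 0.14), against -0.02 for all tested rows, and 51.0% of the loci were higher in mKO. A locus listed at 0 in 1 group was always called when tested, 19 of 19, against 4 of 15 such rows with a gene name. The authors' intervals of the groups were apart for 35 of the tested loci, against 0.715% of all tested rows. Of these 31 were higher in mKO and 4 lower, against 0.34% and 0.375% of all tested rows, and 28 loci met both rules. A group listed at 0 has an interval of 0 to 0, which cannot overlap an interval above 0. Only 9 of the 28 had both groups above 0, against 55 of the 77 that met both rules over all tested rows.

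**Figure D2:**
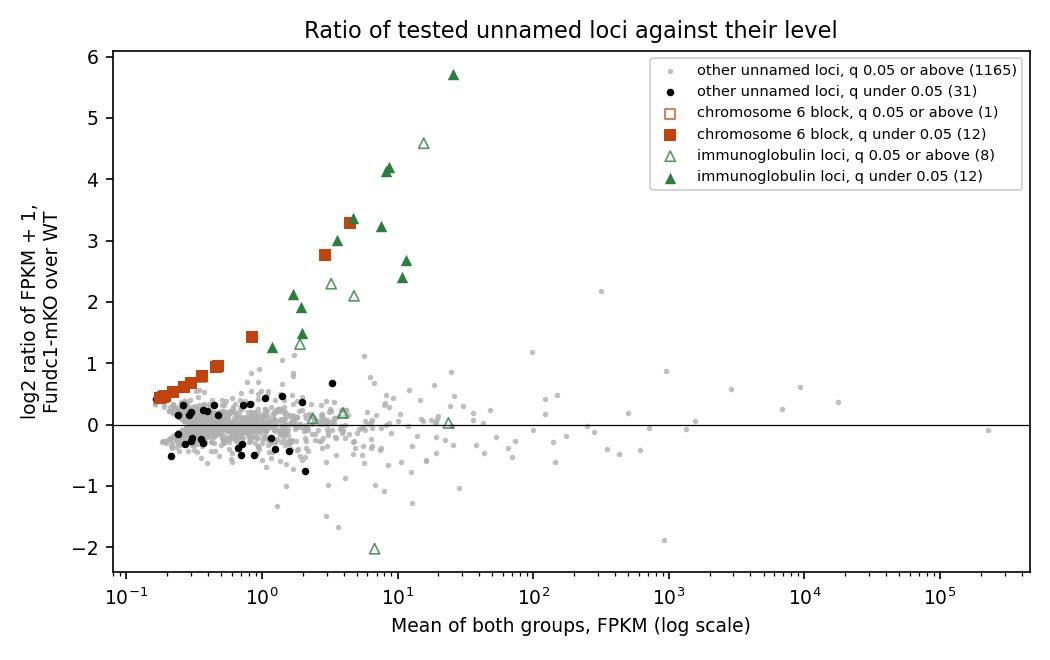
Log2 ratio of FPKM + 1, mKO over WT, against the mean FPKM of both groups (log scale) for the 1229 tested unnamed loci; filled symbols passed 0.05 for the authors' q. Triangles, the immunoglobulin loci, and squares, the chromosome 6 block, rise away from the grey and black points of the other loci, of which 31 were called.

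Antibody genes gave the highest log2 ratios of all unnamed loci, up to 5.71. The table names none of the 432 immunoglobulin genes of GENCODE M21, so their RNA is found in the table only under the hyphen, as 20 loci on 12 genes. All 20 were tested, 19 were higher in mKO, 12 rose in the authors' deposited table and 0 fell, and the median log2 ratio was 2.21. The intervals of the groups were apart in 17 of the 20. WT was listed at 0 in 6 of the 20 and mKO in none. At those 6 the WT interval is 0 to 0, so they count among the 17 whatever the size of the difference.

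The C genes separated by antibody class. Ighg2c, the constant gene of IgG2c, rose in all of its 3 loci, and its middle locus XLOC_005483 had 20.8 FPKM in mKO (12.05 to 29.5) and 2.37 in WT (0.293 to 4.45), a ratio of 8.76. The neighbouring XLOC_005482 had 14.4 FPKM in mKO and 0.624 in WT, 23.1-fold higher, each with a q of 0.00338 in the authors' deposited table. Ighg2b, the constant gene of IgG2b, had 3 loci at 3.38 to 6.04 FPKM in mKO and 0 to 0.433 in WT, and 2 of them rose. Igha, the constant gene of IgA, had 3 loci at 3.15 to 8.37 FPKM in mKO and 0.554 to 1.19 in WT, of which XLOC_005479 rose, with 3.37 against 0.554 and a q of 0.0249 in the authors' deposited table. Igkc, the constant gene of the kappa light chain that pairs with every heavy class, rose 6.87-fold, with 19.0 FPKM in mKO (13.6 to 24.3) and 2.76 in WT (1.56 to 3.96). Ighm, the constant gene of IgM, had nearly the same level in both groups: its 3 loci had 23.98, 4.28 and 2.49 FPKM in mKO against 23.5, 3.63 and 2.25 in WT, ratios of 1.02, 1.18 and 1.11, and q values of 0.992, 0.637 and 0.877 in the authors' deposited table. The difference between Ighm and the other classes was not tested, since there is 1 value per group.

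Of the 7 V segments, 6 were high in mKO and at or near 0 in WT, and the other was higher in WT. Igkv10-96 (XLOC_019647) had 51.3 FPKM in mKO (46.1 to 56.5), Igkv4-58 17.3 (15.4 to 19.2), Igkv6-15 16.5 (14.2 to 18.7), Ighv7-3 9.32 (7.77 to 10.9) and Igkv5-48 7.10 (5.74 to 8.45), and all 5 were listed at 0 in WT. These 5 rose with a q of 0.00338 in the authors' deposited table, and no fold can be given against 0. They have no test statistic, and unnamed loci tested with a group at 0 were called in 19 of 19 cases. Their q therefore adds no support beyond the 0 in WT. With WT at 0, these 5 could be tested only through their mKO reads, so the count of segments by direction is partly set by that. Ighv1-76 (XLOC_005493) had 30.9 FPKM in mKO (27.0 to 34.7) and 0.325 in WT (0 to 0.652), but its q was 0.679. Igkv14-126 (XLOC_019646) went the other way, with 2.07 FPKM in mKO (1.51 to 2.62) and 11.5 in WT (10.005 to 13.0), and its q was 0.293. The authors' intervals were apart at all 7 V segments, mKO above WT at 6 and WT above mKO at 1, though Ighv1-76 and Igkv14-126 did not pass the q. At the 5 listed at 0 in WT the WT interval is 0 to 0, so it could not overlap an mKO interval above 0. Only at Ighv1-76 and Igkv14-126 could the intervals have overlapped. These intervals surround 1 value per group and do not give the spread between animals. V segments have close relatives in the genome, and the nearest other gene was 94.6% identical for Igkv10-96 (Igkv10-94), 95.8% for Igkv4-58 (Igkv4-51), 95.2% for Igkv6-15 (Igkv6-13), 95.2% for Ighv7-3 (Ighv7-2) and 95.1% for Ighv1-76 (Ighv1-77), so which relative gave the reads is uncertain for these 5. The nearest gene was less alike for Igkv14-126, with 92.3% (Igkv14-111), and for Igkv5-48, with 86.1% (Igkv5-45).

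**Figure D3:**
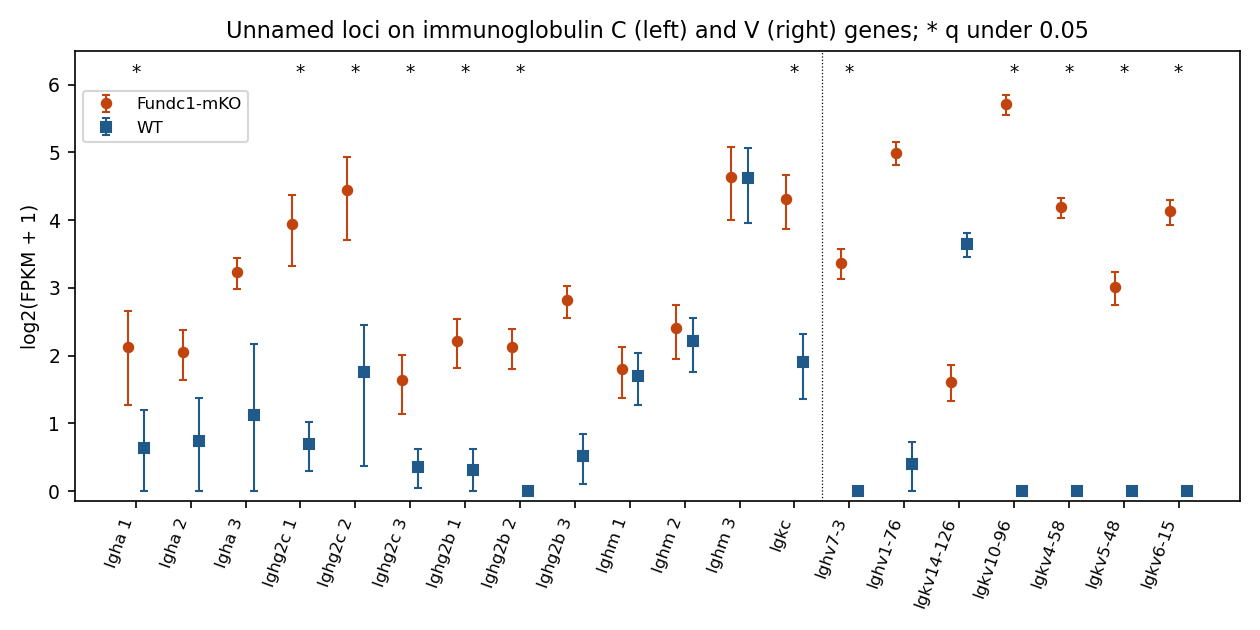
Level of the 20 unnamed loci on immunoglobulin C genes (left of the dotted line) and V genes (right), as log2(FPKM + 1) with the authors' intervals, mKO as circles and WT as squares; several loci of 1 gene are numbered by position, and asterisks mark a q under 0.05. The Ighm pairs lie level, Igkv14-126 is higher in WT, and the other loci are higher in mKO.

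In bulk muscle, fewer cells of a type and less RNA per cell cannot be told apart. Markers of B and plasma cells other than the antibody genes, a list chosen after the antibody loci were seen, stayed low in both groups: 11 genes summed to 1.41 FPKM in mKO and 1.18 in WT, 6 higher and 5 lower in mKO, with none called among the 2 that were tested. Jchain, which joins antibody units into polymers, had 0.504 FPKM in mKO (0.246 to 0.761) and 0.266 in WT (0.101 to 0.432), with a q of 0.0669 in the authors' deposited table. Prdm1, a regulator of plasma cell fate, had 0.120 in mKO and 0.0593 in WT. Ms4a1, Pax5 and Pou2af1 were listed at 0 in WT and had at most 0.0568 FPKM in mKO. The 5 lower in mKO included Tnfrsf17, with 0.0863 FPKM in mKO and 0.134 in WT, and Cd79b, with 0.112 and 0.188. The others of these 5 were Irf4 (0.386 and 0.398), Fcrla (0.0211 and 0.0374) and Cd79a (0.0690 and 0.0704). T cell markers and the 1 unnamed locus on a T cell receptor C gene, XLOC_007387, were picked at the same time. The markers summed to 0.846 FPKM in mKO and 0.929 in WT, and the locus had 0.626 in mKO and 0.977 in WT without passing the q. Other blood and stromal lists differed as well. All 4 neutrophil markers rose, with a summed level of 265 FPKM in mKO and 193 in WT, and 5 of 6 macrophage markers fell, with 155 and 200.3. Of 4 fibroblast markers 2 fell (198 and 219), while 3 endothelial (54.9 and 51.1), 3 adipocyte (867 and 771) and 1 erythroid marker (87.2 and 75.4) did not pass. The part of any of these cell types in the antibody loci was not tested.

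The second set of rises was a run of 16 neighbouring loci on chromosome 6, from 66080860 to 66389759 (XLOC_019630 to XLOC_019645), 308900 bp in which the loci cover 87127 bp (28.2%). The run was taken as the one with the most WT values at 0, so its low WT level is part of that choice. All 16 had a higher FPKM in mKO, WT was listed at 0 in 13, and the highest WT value was 0.0131 FPKM. Of 13 tested loci 12 rose in the authors' deposited table. The exception, XLOC_019630 at the left end, had 0.710 FPKM in mKO (0.461 to 0.960) and 0.00607 in WT (0 to 0.0265), with a q of 0.679. Most of the 12 rises were listed at 0 in WT, so they could be tested only through their mKO reads and have no statistic. Unnamed loci tested with a group at 0 were called in 19 of 19 cases. The count of 12 is therefore largely set by the choice of the run. Levels were uneven along the run. The 2 loci at the right end, XLOC_019644 of 12042 bp and XLOC_019645 of 24415 bp, had 5.80 FPKM in mKO (4.84 to 6.76) against 0.00277 in WT, and 8.94 in mKO (7.50 to 10.4) against 0.0131 in WT (0.00392 to 0.0222). They held 91.0% of FPKM times length of the run in mKO, and the other 14 loci had 0.198 to 1.69 FPKM in mKO. Weighted by length, the run had 3.63 FPKM in mKO and 0.00425 in WT.

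None of the 16 loci lies in a GENCODE gene, and 5 overlap the RefSeq non-coding genes Gm36408 or Gm38824. Gaps between neighbours ran from 70 to 59048 bp, with 6 under 1 kb, all toward the right end. Of the named rows nearby, 4930544G11Rik, 126845 bp to the left, was listed at 0 in both groups. Mad2l1, the spindle checkpoint gene 145708 bp to the right, had 0.690 FPKM in mKO (0.373 to 1.01) and 1.24 in WT (0.768 to 1.72), and it fell with a q of 0.0106 in the authors' deposited table. Of 47 runs of at least 5 unnamed loci with gaps of at most 100 kb, 2 held any locus listed at 0 in WT, this one and the Ighg2c, Ighg2b and Igha run of chromosome 12. For the chromosome 6 run this is the feature it was chosen by. In 6 runs every locus was higher in mKO and in 3 every locus was lower.

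**Figure D4:**
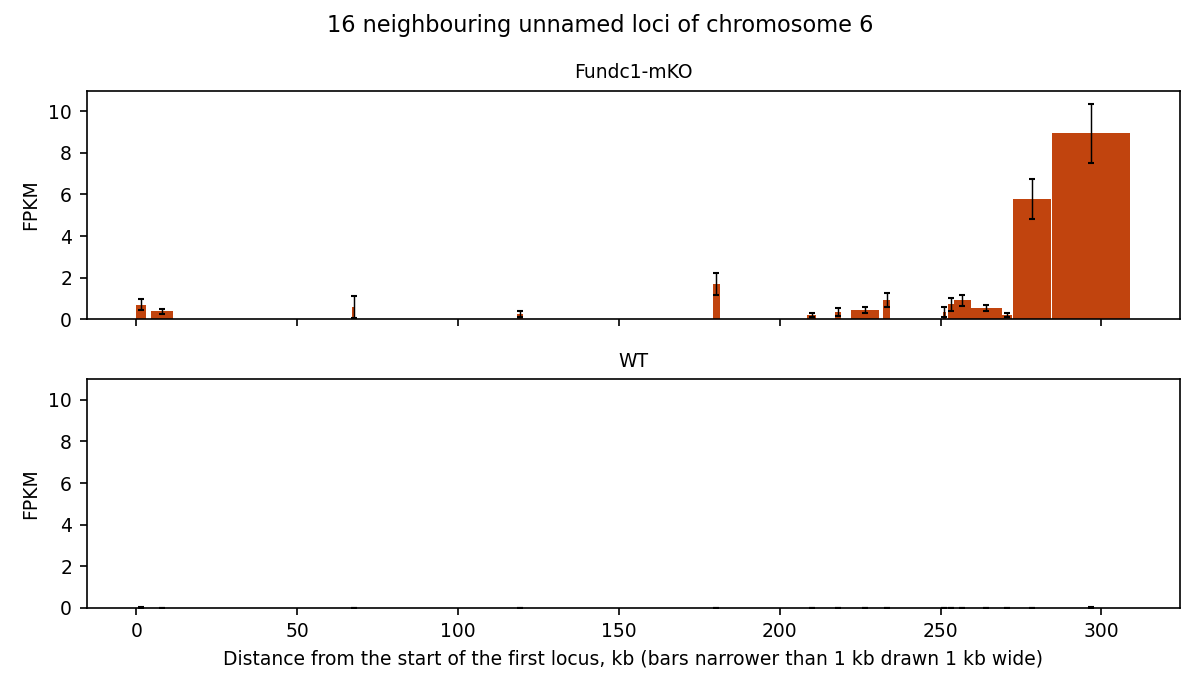
FPKM of the 16 loci by distance in kb from the start of the first, mKO above and WT below on the same axis; bars span each locus and whiskers are the authors' intervals. The last 2 bars of mKO reach 5.80 and 8.94 FPKM, and no WT bar exceeds 0.0131.

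The rest of the called loci were weak, with 16 rises and 15 falls. The rises given here were picked after their values were seen. The largest ratio among the 16, on log2(FPKM + 1), was that of XLOC_005441 on chromosome 12, on an exon of Arhgap5 and inside the span of the lincRNA gene Gm35188, with 4.30 FPKM in mKO (2.58 to 6.03) and 2.32 in WT (1.18 to 3.45). XLOC_010359, 69 bp from the named row of Gm5091 on chromosome 17, had 1.79 in mKO and 1.02 in WT. XLOC_021915, on an exon of 2310014F06Rik, had 1.35 in mKO and 0.749 in WT. On chromosome Y, XLOC_025832, which overlaps the RefSeq gene Gm52481, had 2.35 FPKM in mKO and 1.61 in WT, and the named row nearest to it, Erdr1, also rose, with 74.9 and 45.9. Each of these 4 had a q of at most 0.00615 in the authors' deposited table, and the intervals of the groups overlap in all 4.

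Of the 15 falls 4 had a mean of at least 1 FPKM. XLOC_007365 (chr14:20221025-20221609), on the lincRNA Gm48395, had 1.28 FPKM in mKO (0.525 to 2.04) and 2.86 in WT (1.50 to 4.21), with a q of 0.0106 in the authors' deposited table. XLOC_005476, 7190 bp on an exon of Ahnak2, a giant scaffold gene, had 1.20 in mKO and 1.97 in WT. XLOC_006445, between genes on chromosome 13, had 0.954 in mKO and 1.56 in WT. XLOC_023211, in an intron of Gm20388, had 1.001 in mKO and 1.33 in WT, the smallest difference of the 4. Among the weaker falls, picked after their values were seen, XLOC_015262 on an exon of Flg, the epidermal gene filaggrin, was the 1 locus listed at 0 in mKO, with 0.425 FPKM in WT (0.166 to 0.685). Epidermal markers moved with it: Krt10 had 1.26 FPKM in mKO and 2.86 in WT and fell, Dmkn had 0.387 and 1.81 and fell, and Krt5 had 0.0121 and 0.349 with a q of 0.637. Their summed level was 1.66 in mKO and 5.01 in WT, and their part in the Flg locus was not tested.

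Over all tested rows, 0.92% rose and 2.25% fell. By annotated type, of 189 tested loci that overlap a lincRNA gene 5 rose and 2 fell. Of those 5 rises 3 touch no lincRNA exon, and 1 of the 3 is the Igkc locus given above. Of 57 antisense loci 0 rose and 3 fell, and 2 of these 3 are pieces of 1 gene, Junos. Of 382 on protein-coding genes 2 rose and 5 fell, while 16 loci on unprocessed pseudogenes, 16 on transcribed processed and 7 on transcribed unprocessed ones had none. By place, 26 of 630 exonic loci were called (18 rises, 8 falls), 4 of 105 in introns (1 and 3) and 25 of 494 between genes (21 and 4), where the exonic rises hold the 12 antibody loci and the rises between genes hold the 12 of the chromosome 6 run. The nearest named row was also called for 14 of the 55 called loci (25.5%), against 57 of all 1229 tested loci (4.64%). Of the 14, 10 belong to the chromosome 6 run and share 1 row, Mad2l1, which lies 146 to 273 kb away and fell. Outside the run it was 4 of 43 called loci (9.30%), against 47 of 1216 tested (3.87%). These 4 had the direction of their named row. The 2 Junos loci share 1 row, Jun, which lies 3790 and 108749 bp away, and fell as it did. XLOC_025832, 39766 bp from Erdr1, rose as Erdr1 did. XLOC_013994, picked after its values were seen, had 0.358 FPKM in mKO and 0.217 in WT. Ppapdc3, 1550 bp from it, had 70.8 and 55.9. Over 981 tested loci whose nearest named row was also tested, Spearman's rho between the 2 log2 ratios was 0.10, and it was 0.21 over the 91 pairs within 5 kb with a mean of at least 1 FPKM. These are descriptions across loci that share the same libraries.

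Several long genes appeared as many separate unnamed loci, which shows how much pieces of 1 gene can differ in this table. Hmcn2, the gene of hemicentin 2, an extracellular matrix protein, has no row of its own name, and 26 unnamed loci lie on its exons over 147623 bp. Of these 7 were higher in mKO and 19 lower by sign alone, with a median log2 ratio of -0.07, and 1 was called, XLOC_013978, with 1.04 FPKM in mKO (0.616 to 1.46) and 0.607 in WT (0.311 to 0.902) and a q of 0.0439 in the authors' deposited table. The shortest loci of the gene went far apart: XLOC_013990, of 152 bp, had 3466 FPKM in mKO (823 to 6109) and 2320 in WT (270.2 to 4370), while XLOC_013985, of 170 bp, had 391 in mKO (0 to 808) and 1453 in WT (527 to 2379). Their q values of 0.649 and 0.0956 in the authors' deposited table did not pass. Syne1, the gene of the nuclear envelope protein nesprin 1, had 12 such loci and 0 calls. Its 172 bp locus XLOC_002588 had 523 FPKM in mKO (76.3 to 969) and 114 in WT (113 to 115), with a q of 0.126, whereas the named Syne1 row had 10.8 in mKO and 11.9 in WT.

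Other host genes were more even. Rnf213, an E3 ubiquitin ligase gene, had 16 loci, 6 of them higher in mKO, and 1 fell, XLOC_004578, with 0.552 FPKM in mKO (0.189 to 0.915) and 1.19 in WT (0.602 to 1.78). The antisense gene Junos, next to Jun, had 7 tested loci that were all lower in mKO. Of these XLOC_016763 fell, with 0.227 FPKM in mKO and 0.513 in WT, and so did XLOC_016769, with 0.448 and 0.890, while the other 5 did not pass. Jun, an immediate early transcription factor gene, also fell, with 34.9 FPKM in mKO (29.2 to 40.6) and 42.1 in WT (35.3 to 48.8) and a q of 0.0396 in the authors' deposited table. Ank2, the gene of ankyrin-B, had 7 tested loci, all lower in mKO by sign and none called, and its named row had 10.9 and 12.1 FPKM with a q of 0.542. The 5 loci of Gm19410 were all lower in mKO and the 4 of Ifi203-ps all higher, again with no call. These genes were picked because they hold many unnamed loci or because their loci share a sign, after the values were seen.

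**Figure D5:**
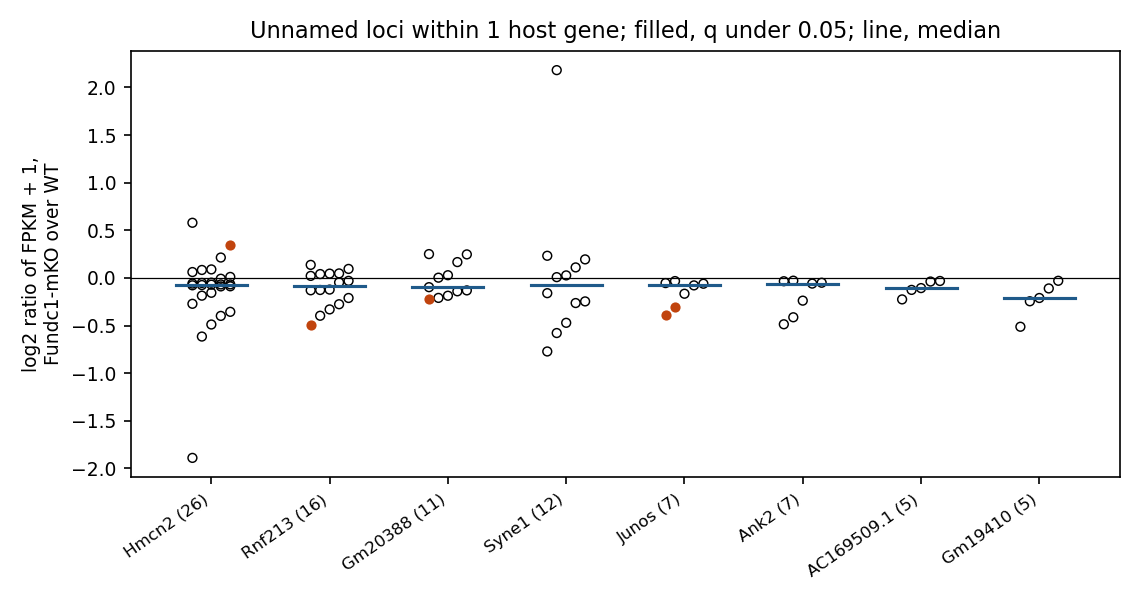
Log2 ratio of FPKM + 1, mKO over WT, of the tested unnamed loci in 8 host genes, with the number of loci in brackets; each point is 1 locus, filled points passed 0.05 for the authors' q, and lines are medians. Hmcn2 and Syne1 spread widest, from -1.89 to 0.58 and from -0.77 to 2.18, while the loci of Junos, Ank2, AC169509.1 and Gm19410 all lie below 0.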

How the data were processed

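RNA of gastrocnemius muscle was sequenced from 2 Fundc1-mKO and 2 WT libraries. Cufflinks 2.2.1, TopHat2 2.0.14, FastQC 0.11.3, bcl2fastq and the mm10 build are named in the submitters' processing notes, with no role given. The deposited table holds 1 FPKM per row and group, computed by the authors over that group's libraries, with the bounds of an interval, per the file headers. The authors' test statistic is a score, and p-value and q-value columns of the authors stand beside it, per the file headers. Annotation, settings and read totals are not stated, so the depth is unknown and no counting interval can be given. A linear model had been foreseen for values per library, and with 1 value per group it could not be fitted. The authors' q was counted in its place.

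Ratios are log2 of FPKM + 1, mKO over WT, and folds are plain ratios of FPKM. Starts count from 1, after adding 1 to the deposited start: of 22374 single-gene rows matched to 1 RefSeq symbol, 10507 had the same end and 7597 of these then had the same start. Loci were placed on GENCODE M21 (same assembly) by at least 1 shared base, and on RefSeq genes. For 7 loci the span is shared with a named row, so their length is not their own. Sequences were compared with GENCODE transcripts by blastn 2.17.0. The procedures were tested on simulated data. Python 3.11.15, pandas 2.3.3, numpy 2.4.6, scipy 1.17.1, biopython 1.88 and matplotlib 3.10.9 were used.

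Loci were named by rule: the 12 highest means, the 12 largest rises and falls with a q under 0.05 and a mean of at least 1 FPKM, the locus nearest to Fundc1, up to 4 loci of each gene type, and the 5 longest and 5 shortest. Loci and genes outside it are said to have been picked after their values were seen. The members, lists and rules were chosen with earlier results of these data known. The tryptophan pattern of V segments and the B and T cell lists were added after the data were seen. Columns of other samples numbered 0. GC content and repeats were not analysed here. Some genes are not reported here.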

Additional observations from a re-analysis of the deposited data

How the results depend on the processing

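With 1 value per group no test across animals and no leave-one-out was possible, and the depth is unknown. No paired analysis was possible because the table gives 1 value per group. Of the 55 calls (40 higher and 15 lower in mKO), 33 passed a q of 0.01 in the authors' deposited table, 4 of them lower, and 105 passed a q of 0.1 (61 higher, 44 lower). A mean of at least 1 FPKM left 22 (18 higher, 4 lower), and at least 5 FPKM left 6 (6 higher, 0 lower). Reading the authors' statistic against a normal distribution with Benjamini-Hochberg adjustment over all tested rows gave 10 (9 higher, 1 lower). The 19 called loci with a group at 0 have no statistic in the table, so 36 of the 55 could pass there. Intervals that do not overlap gave 35 (4 lower). The unadjusted p was under 0.05 for 355 loci (28.9%), against 13.7% of all tested rows. Chosen after seeing the data, leaving out the chromosome 6 run and the antibody loci gave 31 (16 higher), and leaving out loci with a group at 0 gave 36 (22 higher). Leaving out either set alone gave 43, and a length of at least 200 bp gave 55. Loci near a named row numbered 714 within 5 kb, 253 within 1 kb, and 417 among tested loci. Loci that overlap a gene numbered 735 to 1042 and the median log2 ratio lay between 0.00 and 0.02 over the alternatives tried. Of 70 loci named by rule 37 were higher in mKO, and 39 were with the medians of tested named rows made equal: XLOC_015248 on Gm8325 then had a log2 ratio of 0.0044 (-0.025 as reported) and XLOC_015276 of 0.014 (-0.0037). Neither was called, and no called locus named by rule changed direction under the other pseudocount or this scaling.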
